A study of Mus musculus with 18 samples.

Results

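The genes described here are 10 transcription regulators of the trophoblast, the lineage that forms the outer layer of the blastocyst and later most of the placenta: Cdx2, Elf5, Eomes, Cited1, Tfap2c, Tfap2a, Gata3, Gata2, Hand1 and Tead4. Every probe set that the array's annotation assigns to 1 of these symbols was taken, whatever its values. This gave 10 genes of 18193, read by 20 probe sets of 45101. The genes themselves were chosen with earlier results of these data known, so a count of calls among them is a description. The probe sets of 1 gene are numbered here by their mean log2 signal over all arrays, with the brightest as number 1. Mouse embryonic stem cells (ESCs) were profiled on 18 arrays in 6 groups of 3 labelled biological replicates. In 4 groups, cells of the CGR8 line had been lipofected with Foxd3 together with CA-NFATc3, CA-NFATc3, Foxd3, or the empty vector. Foxd3 is a forkhead transcription factor of pluripotent cells, and CA-NFATc3 is read here as a constitutively active NFATc3, a factor that otherwise needs the phosphatase calcineurin to enter the nucleus. In the last pair of groups, cells with floxed Foxd3 alleles and a tamoxifen-dependent Cre (Foxd3fl/fl:Cre-ERT) had 2 days of tamoxifen, or DMSO as 0 days. Both groups carry the floxed alleles and the Cre, and no cells without floxed alleles were given tamoxifen, so that Foxd3 deletion and tamoxifen itself cannot be told apart. The labels name CGR8 as the source of all 6 groups and give 1 culture protocol, GMEM with serum and LIF. Not given in the labels are the promoters that drive the plasmids and the Cre, the time after transfection, and whether feeder cells were used.

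All 12 transfected arrays carried the transcripts that define ESCs. The signal of Pou5f1, which encodes Oct4, lay between 8306 and 11098 in them, that of Nanog between 11770 and 15703, and that of Sox2 between 14959 and 17563. In the conditional knockout cells Pou5f1 lay between 7315 and 9378, Nanog between 5243 and 6102 and Sox2 between 10931 and 12962. The probe set of the deleted gene fell with tamoxifen: Foxd3 had 9.55, 19.7 and 65.1 units, against 204, 205 and 249 with DMSO (log2 difference -2.08 ± 0.27, adjusted p = 0.000174). In the transfected arrays the same probe set went against the label. It had 232, 236 and 244 units in the arrays labelled Foxd3, against 404, 419 and 507 with vector (log2 difference -0.81 ± 0.13, adjusted p = 0.00239). The probe set had 210, 214 and 277 units in those labelled Foxd3 plus CA-NFATc3, against 408, 463 and 483 with CA-NFATc3 (-0.87 ± 0.13, adjusted p = 0.000693). Whether its probes lie inside the plasmid's insert is not given. An exchange of labels between the arrays with and without Foxd3 cannot be told apart from this. Such an exchange would turn the sign of every contrast between them. It would also make the contrast of CA-NFATc3 with vector that of both plasmids with Foxd3, and the reverse. These groups are therefore called by their labels throughout, and each direction below rests on those labels. The probe sets of Nfatc3 were called in no contrast, while Rcan1, a calcineurin regulator that NFAT factors activate, had 3235, 3274 and 4597 units with CA-NFATc3, against 1137, 1192 and 1258 with vector (1.59 ± 0.11, adjusted p = 3.33e-07).

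In the mouse blastocyst, Tead4 with its coactivator Yap, and Gata3 beside it, turn on Cdx2 in the outer cells, and Cdx2 restrains the pluripotency program there. Cdx2, Eomes, Elf5 and Tfap2c then maintain one another in trophoblast stem cells, and the Elf5 promoter is known to be methylated in ESCs. Gata2, Hand1 and Cited1 are better known from later trophoblast: Gata2 and Hand1 from giant cells, and Cited1, a coactivator without a DNA-binding domain of its own, from the spongiotrophoblast layer. Tfap2a is a close relative of Tfap2c. NFAT factors bind a short core, GGAAA, often next to an AP-1 site.

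The promoter windows of the members show where that core lies next to the genes that moved most with CA-NFATc3. RefSeq windows (build GRCm38.p6, 250 bases before to 50 after a start) were found for 7 of the 10 members and numbered 12; Tfap2c, Hand1 and Tead4 had none. The 3 windows printed below belong to Cited1, Elf5 and Eomes and are the ones of these genes that hold the core, with each match to GGAAA or its reverse complement TTTCC in capitals. The Cited1 window is chrX:102251794-102252093 on the minus strand, the Elf5 window is chr2:103423818-103424117 on the plus strand and the Eomes window is chr9:118477939-118478238 on the plus strand.
Cited1: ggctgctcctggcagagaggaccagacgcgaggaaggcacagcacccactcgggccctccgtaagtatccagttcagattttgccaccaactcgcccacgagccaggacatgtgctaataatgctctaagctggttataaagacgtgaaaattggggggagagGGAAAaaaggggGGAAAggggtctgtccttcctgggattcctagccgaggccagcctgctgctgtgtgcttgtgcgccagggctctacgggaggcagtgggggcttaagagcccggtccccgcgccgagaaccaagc
Elf5: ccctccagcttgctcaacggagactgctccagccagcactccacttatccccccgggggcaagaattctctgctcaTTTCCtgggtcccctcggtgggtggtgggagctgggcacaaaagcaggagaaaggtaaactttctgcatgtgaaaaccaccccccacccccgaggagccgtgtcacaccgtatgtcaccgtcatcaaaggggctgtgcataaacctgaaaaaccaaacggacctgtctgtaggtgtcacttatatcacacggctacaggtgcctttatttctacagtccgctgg
Eomes: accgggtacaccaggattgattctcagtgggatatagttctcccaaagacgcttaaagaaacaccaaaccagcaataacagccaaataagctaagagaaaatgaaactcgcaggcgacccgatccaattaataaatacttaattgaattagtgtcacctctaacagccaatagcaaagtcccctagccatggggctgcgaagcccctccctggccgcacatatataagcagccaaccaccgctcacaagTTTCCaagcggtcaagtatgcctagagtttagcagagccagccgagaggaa
The printed Cited1 window holds 2 cores, and the printed Elf5 and Eomes windows hold 1 each. Cited1 had a core in 1 of 3 windows, Elf5 in 1 of 2 and Eomes in 1 of 1. Gata2, which also rose with CA-NFATc3, had it in 0 of 2 windows. Gata3 had it in 1 of 1 and Tfap2a in 2 of 2, with signals too low to test in the transfected cells. In all, 6 of the 12 member windows held a core on either strand, against 61.3% of 32851 windows in the whole table, so the members' share was not above that of all windows. The AP-1 motif TGANTCA was in 0 of the 12 windows, against 7.81% of all, and the TEAD motif GGAATG in 2, a window of Elf5 and a window of Gata2 not printed here, against 14.7% of all. A match is a description of the letters and not a binding site.

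Signals are the MAS5 values as deposited, in arbitrary units that can be compared between arrays for 1 probe set and not between probe sets. A probe set was tested if it reached 65.8 units, the median of all deposited values, in at least 3 arrays of a fit. Below, a probe set under that level is called dim, and since no detection calls were used here, the level stands in for a background limit. Differences are log2(signal + 32) ± SE from limma, and a probe set was called at a Benjamini-Hochberg adjusted p under 0.05 over all probe sets tested. Because of the added 32, a difference understates the change of dim probe sets. In the transfected cells 11 of the 20 member probe sets were tested, from 7 genes: Tead4, Eomes, Elf5, Tfap2c, Gata2, Hand1 and Cited1. Those of Cited1 and of Elf5 passed through the 3 CA-NFATc3 arrays alone, so a difference from that group was fixed for them by the filter, and Gata2 probe set 2 had only 1 other array at that level. Counts are therefore also given over the 8 other probe sets, and over all 20 with no filter. The members left out in the transfected cells were dim throughout. Cdx2 stayed between 1.84 and 42.7 units on its probe sets in these 12 arrays, Gata3 between 1.00 and 32.2, and Tfap2a between 2.63 and 56.2. The second probe sets of Elf5, Hand1 and Tead4 did not reach 3 arrays either, with highest values of 39.0, 36.8 and 73.6 units.

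**Figure D1:**
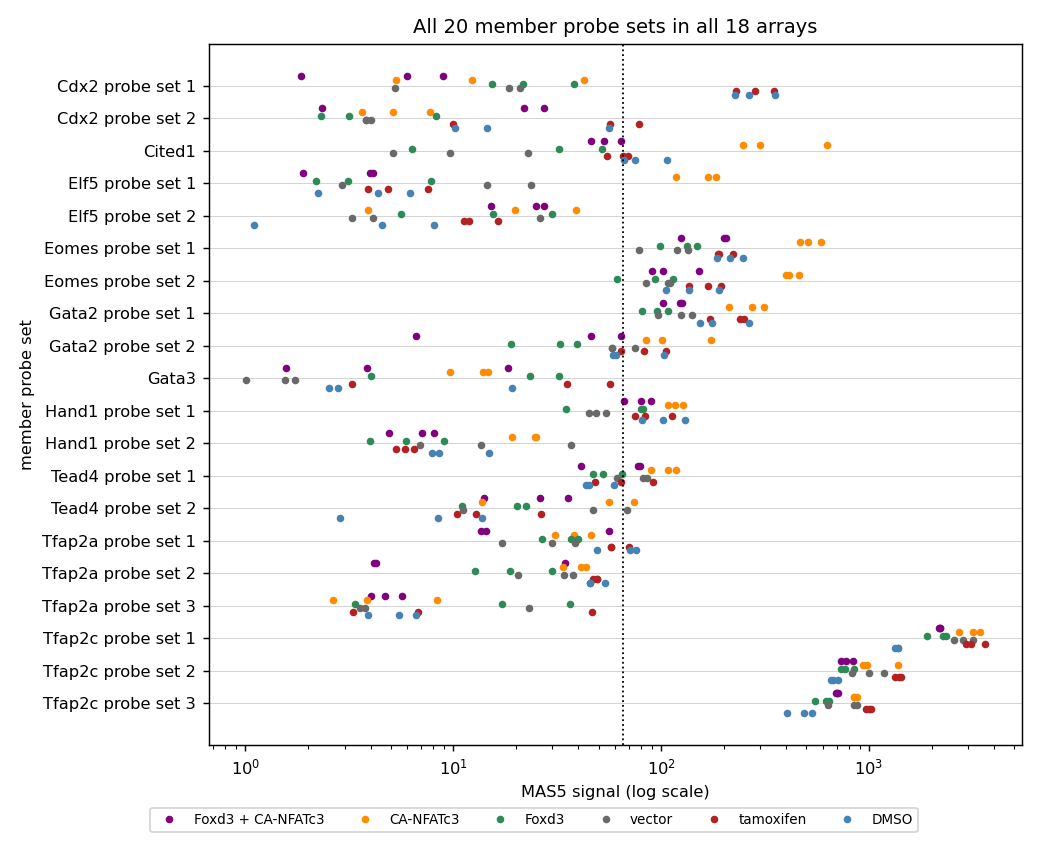
MAS5 signal (log axis, arbitrary units) of all 20 member probe sets, 1 row each, with 1 point per array coloured by group; the dotted line is the 65.8 units needed in 3 arrays. The points of Tfap2c lie far above the line in every group, those of Gata3 below it in every group, and those of Cdx2 probe set 1 cross it in the conditional knockout cells, where they lie between 226 and 354.

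With CA-NFATc3, 5 of the 7 testable members rose above vector: Cited1, Elf5, Eomes, Gata2 and Hand1. Their probe sets made 6 of the 11 tested, all higher, against 3.57% of all 23595 probe sets called and 2.84% called higher; Tead4, the 3 probe sets of Tfap2c and a second one of Gata2 were not called. Of the 8 probe sets that the filter had not tied to CA-NFATc3, 4 were called, those of Eomes, Gata2 and Hand1. With no filter 5 of all 20 were called, against 731 of all 45037 probe sets. Cited1 then had an adjusted p of 2.96e-05 and Elf5 of 4.36e-05. The arrays of the groups did not overlap for 5 of the 8, all higher with CA-NFATc3, against 9.48% of all probe sets. The median difference over the 8 was 0.61, against -0.01 over all probe sets tested. In bulk RNA, more cells that express a gene and more RNA per cell cannot be told apart.

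Among the genes of the trophoblast stem cell circuit, Eomes, a T-box factor, had 467, 507 and 587 units on probe set 1 with CA-NFATc3, against 135, 119 and 78.1 with vector. On probe set 2 it had 399, 460 and 413 units with CA-NFATc3, against 107, 110.0 and 84.1 with vector. On both probe sets every CA-NFATc3 array stood far above every vector array, and vector replicate 3 was the lowest. The differences were 1.97 ± 0.19 (adjusted p = 1.48e-05) and 1.79 ± 0.19 (adjusted p = 2.74e-05). Elf5, an ETS factor, had 169, 118 and 184 units on probe set 1 with CA-NFATc3, against 23.7, 14.5 and 2.92 with vector. All vector arrays were dim, so the rise was at least 2.35-fold (2.06 ± 0.25, adjusted p = 0.00012), and its call was lost with 1 in place of 32 added to the signals (adjusted p = 0.0865). Its dimmer probe set 2 did not show it: it had 19.9, 3.90 and 39.0 units with CA-NFATc3, against 26.1, 3.26 and 4.10 with vector, all of them dim. Tfap2c, the AP-2 factor of this circuit, was far above 65.8 units without a called difference, at 3152, 3403 and 2721 units on probe set 1 with CA-NFATc3, against 3155, 2832 and 2560 with vector. Its differences were 0.12 to 0.14 on the 3 probe sets, with intervals from -0.18 to 0.42 at the widest.

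Of the genes better known from later trophoblast, Cited1 had 298, 248 and 628 units with CA-NFATc3, against 5.14, 9.63 and 22.8 with vector. The vector arrays were all dim and CA-NFATc3 replicate 3 was the highest array of all 18, and the rise was at least 5.46-fold, with no upper limit given by these data (3.16 ± 0.32, adjusted p = 1.67e-05). Gata2, a zinc-finger factor, had 273, 212 and 311 units on probe set 1 with CA-NFATc3, against 140.4, 124 and 96.1 with vector (0.96 ± 0.17, adjusted p = 0.00283). On probe set 2, Gata2 had 100.5, 174 and 84.2 units with CA-NFATc3, against 57.8, 75.1 and 57.8 with vector, which was not called (0.63 ± 0.31, adjusted p = 0.408). The groups did not overlap on either probe set of Gata2, but the spread within the CA-NFATc3 group was wide on probe set 2. Hand1, a basic helix-loop-helix factor, had 127, 108 and 117 units on probe set 1 with CA-NFATc3, against 48.4, 54.3 and 45.0 with vector. This rise was at least 1.78-fold (0.88 ± 0.21, adjusted p = 0.0264), and leaving out any 1 of the 6 arrays took the adjusted p to between 0.0563 and 0.105. Tead4, which acts first in trophectoderm formation, had 108, 89.7 and 117 units on probe set 1 with CA-NFATc3, against 82.1, 61.6 and 85.3 with vector, and was not called (0.34 ± 0.20, adjusted p = 0.543).

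**Figure D2:**
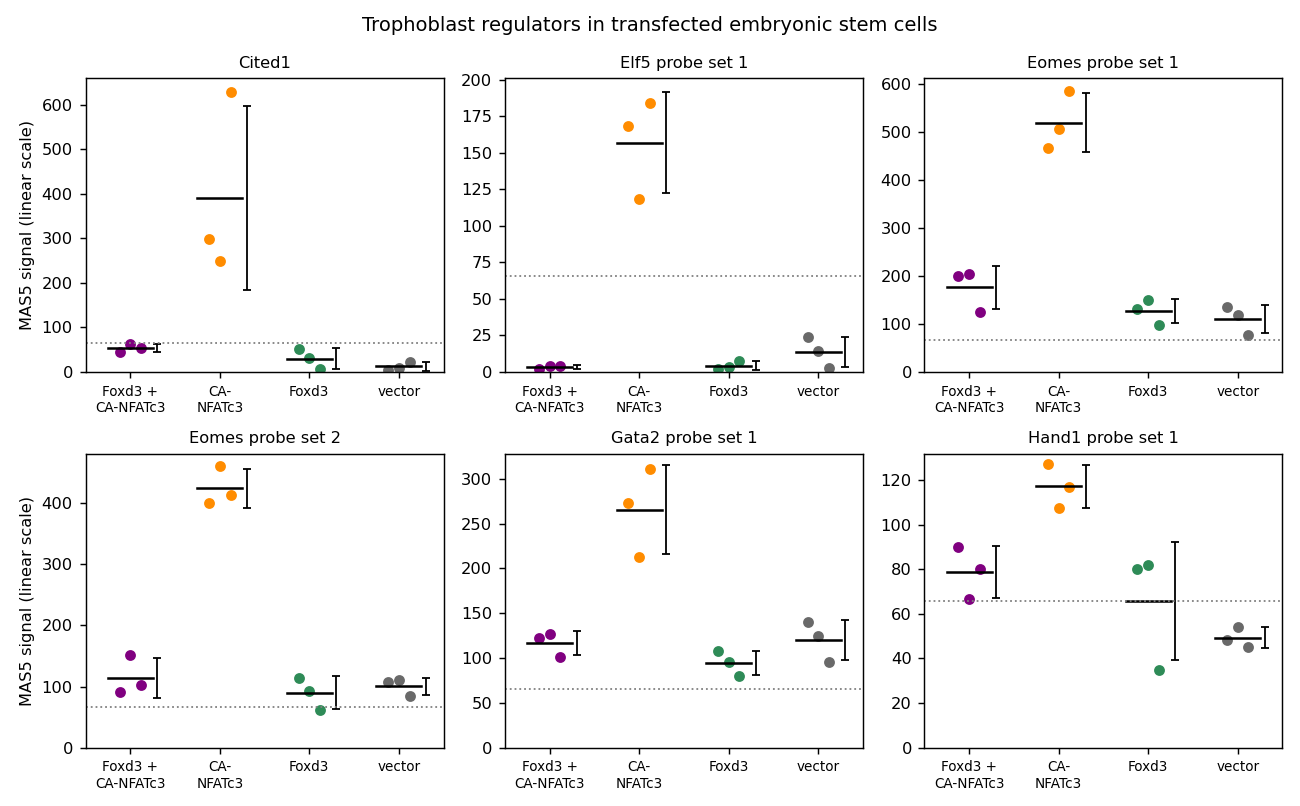
MAS5 signal (linear axis, arbitrary units) of the 6 member probe sets called between CA-NFATc3 and vector, in the 4 transfected groups; points are arrays, bars the mean, whiskers 1 SD (n = 3), the dotted line 65.8 units. In each panel the 3 CA-NFATc3 arrays lie above all arrays of the other groups, and for Elf5 every other array is at 23.7 units or less.

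No relative of the members in the same gene families was called. Of 22 relatives, such as Cdx1, Elf1, Cited2 and the other GATA and TEAD genes, 9 were testable and 0 were called with CA-NFATc3 against vector, each by its brightest probe set; their median difference was -0.01, as over all probe sets. Of other genes of the trophectoderm and trophoblast stem cells, 7 of 30 testable rose, 1 fell and 22 were not called, with a median of 0.15. The leading ones were Krt19, a simple keratin of the trophectoderm (2.29 ± 0.26, adjusted p = 5.58e-05), Peg10, a retrotransposon-derived gene needed for the placenta (1.31 ± 0.29, adjusted p = 0.018), and Fgfr2, the receptor through which FGF4 sustains trophoblast stem cells (1.19 ± 0.15, adjusted p = 0.000145). Of the placental differentiation genes, 9 of 15 on the array were dim in all CA-NFATc3 arrays; 1 of 6 testable rose, Hopx, a homeodomain-only protein (1.04 ± 0.16, adjusted p = 0.000927). In the Hippo and Notch inputs upstream of Cdx2, 4 of 18 rose, among them the TEAD cofactor Vgll3 (1.46 ± 0.19, adjusted p = 0.000217) and the Yap-binding angiomotins Amotl2 (0.83 ± 0.21, adjusted p = 0.0333) and Amotl1 (0.80 ± 0.10, adjusted p = 0.000173).

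Genes of other lineages moved in the same arrays. Of the primitive endoderm list, 4 of 10 testable genes rose with CA-NFATc3, led by Col4a1 (2.97 ± 0.13, adjusted p = 1.21e-09), Col4a2 (2.23 ± 0.17, adjusted p = 6.64e-07) and Sox17 (1.47 ± 0.25, adjusted p = 0.00223). Its summed signal lay between 7726 and 10248 with CA-NFATc3, against 4743 to 5300 with vector. Of the early mesoderm list, 0 of 4 testable genes were called. Of its 14 genes on the array, 7 were dim in all CA-NFATc3 arrays, against 11 with vector. Of the fibroblast list 3 of 6 rose, Col3a1 (2.32 ± 0.22), Twist1 (1.68 ± 0.27) and Fn1 (0.33 ± 0.09), with a summed signal between 8226 and 8901 with CA-NFATc3, against 5842 to 7199 with vector, and with 9 of its 14 genes dim in all CA-NFATc3 arrays, against 11 with vector. Of the pluripotency factors, 4 of 19 fell: Prdm14 (-0.52 ± 0.08), Nr0b1 (-0.51 ± 0.07), Dppa2 (-0.50 ± 0.07) and Klf2. The part of these lists in the members' values was not tested.

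Where Foxd3 was added to CA-NFATc3 by label, 7 of the 11 tested probe sets were lower than with CA-NFATc3, from 5 genes: Elf5, Cited1, Eomes, Gata2 and Tfap2c. Over all probe sets 3.92% were called and 2.25% called lower. Of the 8 probe sets not tied to CA-NFATc3 by the filter, 4 were lower, those of Eomes, Gata2 and Tfap2c. With no filter 6 of all 20 were called, against 779 of all 45037 probe sets. Elf5 then had an adjusted p of 1.18e-05 and Cited1 of 0.00125. In all 8, every array of the combination was lower than every array of CA-NFATc3, against 8.68% of all probe sets, and their median difference was -0.50, against 0.01 over all. Since these 3 CA-NFATc3 arrays also enter the contrast with vector, the sizes of both contrasts share their errors.

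Elf5 had 1.89, 3.97 and 4.10 units with Foxd3 and CA-NFATc3, against 169, 118 and 184 with CA-NFATc3. All 3 arrays of the combination were dim, so the decrease was at least 2.35-fold (-2.40 ± 0.25, adjusted p = 3.63e-05). Cited1 had 45.9, 63.8 and 53.2 units with Foxd3 and CA-NFATc3, against 298, 248 and 628 with CA-NFATc3, at least 5.46-fold lower (-2.19 ± 0.32, adjusted p = 0.000673). The combination was again dim in all 3 arrays. Eomes had 200.4, 205 and 124 units on probe set 1 with Foxd3 and CA-NFATc3, against 467, 507 and 587 with CA-NFATc3 (-1.42 ± 0.19, adjusted p = 0.000419). On probe set 2 it had 90.3, 152 and 102 units with Foxd3 and CA-NFATc3, against 399, 460 and 413 with CA-NFATc3 (-1.66 ± 0.19, adjusted p = 7.78e-05). Eomes stayed above 65.8 units in all arrays of the combination.

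Gata2 had 123, 126 and 102 units on probe set 1 with Foxd3 and CA-NFATc3, against 273, 212 and 311 with CA-NFATc3 (-0.99 ± 0.17, adjusted p = 0.00269). On probe set 2 it had 63.8, 6.64 and 45.8 units with Foxd3 and CA-NFATc3, against 100.5, 174 and 84.2 with CA-NFATc3 (-1.16 ± 0.31, adjusted p = 0.0463). That second call was lost in 9 alternative settings, at adjusted p between 0.0552 and 0.182, and the 3 arrays of the combination were dim and far apart. Tfap2c, not called with CA-NFATc3 against vector, had 2192, 2207 and 2182 units on probe set 1 with Foxd3 and CA-NFATc3, against 3152, 3403 and 2721 with CA-NFATc3 (-0.48 ± 0.10, adjusted p = 0.0107). The other Tfap2c probe sets differed by -0.45 ± 0.14 on probe set 2 (adjusted p = 0.101) and by -0.28 ± 0.11 on probe set 3 (adjusted p = 0.227). The call on probe set 1 was lost without CA-NFATc3 replicate 2 (adjusted p = 0.0501). Hand1 had 89.8, 66.5 and 80.0 units with Foxd3 and CA-NFATc3, against 127, 108 and 117 with CA-NFATc3 (-0.43 ± 0.21, adjusted p = 0.369). Tead4 had 79.3, 77.0 and 41.0 units with Foxd3 and CA-NFATc3, against 108, 89.7 and 117 with CA-NFATc3 (-0.51 ± 0.20, adjusted p = 0.233).

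In the same contrast 9 of the 30 trophectoderm and trophoblast stem cell genes fell and 1 rose, with Krt19 (-1.57 ± 0.26), the homeobox gene Rhox6 (-1.06 ± 0.15) and Bmp4 (-1.01 ± 0.11) in front. Hopx of the placental list fell by 0.97 (adjusted p = 0.00197), and of the Hippo and Notch list 2 of 18 fell, Vgll3 (-1.38 ± 0.19) and Amotl1 (-0.49 ± 0.10). Of the 9 testable relatives of the members, Tead2 rose (0.56 ± 0.11, adjusted p = 0.00631) and Tead1 fell (-0.48 ± 0.09, adjusted p = 0.00514). Col4a1 (-1.75 ± 0.13), Col4a2 (-1.29 ± 0.17) and Sox17 (-0.98 ± 0.25) fell among 4 of 10 primitive endoderm genes, whose summed signal was 5348 to 5593 with Foxd3 and CA-NFATc3, against 7726 to 10248 with CA-NFATc3. Of 6 testable fibroblast genes, Col1a2, a chain of collagen I, rose (2.07 ± 0.26, adjusted p = 0.00016) and Twist1 fell (-1.80 ± 0.27, adjusted p = 0.000813), with a summed signal of 7288 to 8608 with Foxd3 and CA-NFATc3, against 8226 to 8901 with CA-NFATc3. Of the pluripotency factors, Nr0b1 rose (0.38 ± 0.07) and Tbx3 (-0.58 ± 0.08) and Tfcp2l1 (-0.38 ± 0.10) fell, and of the 4 early mesoderm genes Bmp4 alone was called. Rcan1 fell with them (-1.32 ± 0.11, adjusted p = 3.81e-06), to 1384, 1432 and 1508 units, against 3235, 3274 and 4597 with CA-NFATc3. No plasmid transcript of CA-NFATc3 was measured apart from the cell's own Nfatc3. The Nfatc3 probe sets averaged 1817 and 297 units with Foxd3 and CA-NFATc3, against 1732 and 325 with CA-NFATc3, and the part of the plasmid's level in the members' values was not tested.

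Against vector, none of the 11 probe sets was called with both plasmids (limma, 0 of 11), where 2.84% of all probe sets were called. At an unadjusted limma p under 0.05 there were 4 of the 11, against 3437 of all 23595 probe sets. Cited1 had 45.9, 63.8 and 53.2 units with both plasmids, against 5.14, 9.63 and 22.8 with vector. These groups did not overlap, but all 6 arrays were dim, and the difference of 0.97 ± 0.32 was not called (adjusted p = 0.137). Hand1 had 89.8, 66.5 and 80.0 units on probe set 1 with both plasmids, against 48.4, 54.3 and 45.0 with vector, also without overlap. Its rise was at least 1.19-fold and was not called either (0.44 ± 0.21, adjusted p = 0.346). Eomes differed by 0.55 ± 0.19 on probe set 1 (adjusted p = 0.178) and by 0.13 ± 0.19 on probe set 2 (adjusted p = 0.825). Tfap2c, on probe set 1, had 2192, 2207 and 2182 units with both plasmids, against 3155, 2832 and 2560 with vector, without overlap (-0.37 ± 0.10, adjusted p = 0.0653). That difference was called in 4 alternative settings of the limma fit, at adjusted p between 0.00676 and 0.0446. The other Tfap2c probe sets overlapped with vector and were called in no alternative. They differed by -0.33 on probe set 2 (adjusted p = 0.282) and by -0.15 on probe set 3 (adjusted p = 0.613).

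**Figure D3:**
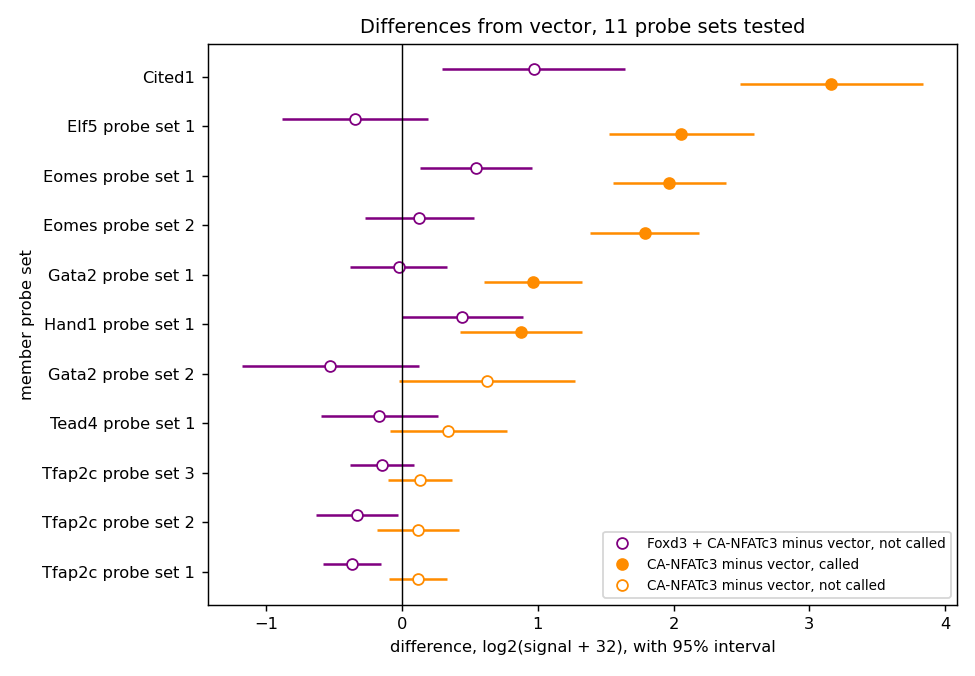
Differences from vector on the log2(signal + 32) scale for the 11 tested member probe sets, with 95% intervals, in arrays labelled Foxd3 plus CA-NFATc3 (purple) and with CA-NFATc3 (orange); filled points were called at an adjusted p under 0.05. The 6 filled points are all CA-NFATc3, from 0.88 for Hand1 to 3.16 for Cited1. Of the 11 purple points 4 lie above 0 and 7 below, those of Elf5 and Gata2 among the 7. The purple intervals of Cited1 (0.29 to 1.65) and Eomes probe set 1 (0.13 to 0.96) lie wholly right of 0, without a call.

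In the arrays labelled Foxd3 without CA-NFATc3, again 0 of the 11 were called against vector by limma, where 1.71% of all probe sets were. An unadjusted p under 0.05 was reached by 3 of the 11, against 2800 of all 23595 probe sets. The probe sets nearest to a call were those of Tfap2c. On probe set 1 it had 2265, 2353 and 1896 units in the arrays labelled Foxd3, against 3155, 2832 and 2560 with vector, without overlap (-0.39 ± 0.10, adjusted p = 0.0692). The other Tfap2c probe sets differed by -0.33 ± 0.14 (adjusted p = 0.354) and -0.35 ± 0.11 (adjusted p = 0.166). With all 18 arrays in 1 fit or 1 probe set per gene, probe set 1 was called (adjusted p = 0.0358 and 0.0477). It was also called with the replicate numbers as a block (adjusted p = 0.0065). Cited1 had 52.0, 32.1 and 6.36 units in the arrays labelled Foxd3, against 5.14, 9.63 and 22.8 with vector, and Elf5 had 2.19, 3.13 and 7.80 units in the arrays labelled Foxd3, against 23.7, 14.5 and 2.92 with vector. Both overlapped between the groups, and all of these values were dim. Tead1, a relative of Tead4, fell in these arrays (-0.40 ± 0.09, adjusted p = 0.0293), with 1 of 9 relatives called. Adding CA-NFATc3 in the arrays labelled Foxd3 gave 0 calls of 11 by limma as well, where 0.225% of all probe sets were called. An unadjusted p under 0.05 was reached there by 0 of the 11, against 1408 of all 23595 probe sets. In that contrast Eomes differed by 0.38 ± 0.19 on probe set 1 (interval -0.03 to 0.79) and Elf5 by -0.04 ± 0.25 (interval -0.58 to 0.50).

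Some genes of the other lists were called in these contrasts. The 0 calls among the 11 member probe sets are close to the background of 1.71%, 2.84% and 0.225% of all probe sets. They therefore do not set the members apart from these lists. In the arrays labelled Foxd3, of the 30 trophectoderm genes Id2, an inhibitor of basic helix-loop-helix factors, rose against vector (1.34 ± 0.22), while Lgals3 (-0.59 ± 0.12) and Bmp4 (-0.53 ± 0.11) fell. Of the 19 pluripotency factors 4 fell there, with Tbx3 (-0.75 ± 0.08), Tfcp2l1 (-0.47 ± 0.10) and Klf5 (-0.40 ± 0.09) in front, and Col4a1 rose (0.70 ± 0.13). With both plasmids against vector, Id2 (1.44 ± 0.22), Lgals3 (-0.80 ± 0.12) and Bmp4 (-0.73 ± 0.11) led 5 called trophectoderm genes, and Amot, another angiomotin, rose (0.53 ± 0.12). Tbx3 (-0.74 ± 0.08), Tfcp2l1 (-0.57 ± 0.10) and Prdm14 (-0.50 ± 0.08) led 7 pluripotency factors that fell. Col4a1 (1.21 ± 0.13), Dab2 (1.05 ± 0.18) and Col4a2 (0.93 ± 0.17) rose in the primitive endoderm list, and Kdr (1.29 ± 0.32) in the mesoderm list. The fibroblast genes Col1a2 (2.63 ± 0.26), Col3a1 (1.63 ± 0.22) and Mmp2 (0.53 ± 0.14) rose as well. Their list's summed signal was 7288 to 8608 with both plasmids, against 5842 to 7199 with vector. With both plasmids against Foxd3, Col1a2 (1.76 ± 0.26), Col3a1 (1.52 ± 0.22) and Atp1b1 (0.68 ± 0.10) rose.

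Whether the difference between the arrays labelled Foxd3 and their controls depended on CA-NFATc3 was tested with the interaction of the 4 groups. The term was called for 4 of the 11 probe sets, all below 0, from Cited1, Elf5 and Eomes. Of the 8 not tied to CA-NFATc3 by the filter, 2 were called, both of Eomes. With no filter 4 of all 20 were called, against 69 of all 45037 probe sets. With the filter the term was called for 0.424% of all 23595 probe sets, and below 0 for 0.381%. It was -2.62 ± 0.45 for Cited1 (adjusted p = 0.0128), -2.10 ± 0.36 for Elf5 (adjusted p = 0.0123), and -1.59 ± 0.28 and -1.52 ± 0.27 for Eomes on its probe sets 1 and 2 (adjusted p = 0.0139 and 0.0151). Gata2, on probe set 1, had a term of -0.73 ± 0.24 that was not called (adjusted p = 0.354), and the terms of Tfap2c lay between -0.12 and 0.07. Without CA-NFATc3 replicate 3 the count was 1, with Elf5 at an adjusted p of 0.0642 and Eomes at 0.0612 and 0.0514 on probe sets 1 and 2. Fgfr2 (-1.11 ± 0.21, adjusted p = 0.0271) was the single call among the 30 trophectoderm genes, and 0 of the 9 relatives were called. Of the 10 primitive endoderm genes 2 were called, Col4a1 (-2.46 ± 0.19, adjusted p = 4.08e-06) and Col4a2 (-1.69 ± 0.24, adjusted p = 0.00234). With an offset of 1 it was not called for Cited1 (adjusted p = 0.154), Elf5 (0.582) or Eomes probe set 2 (0.0506).

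The genes whose 12 transfected arrays lay closest to a member's, by the root mean square difference of log2 values centred on vector, were not other members. Cited1 was nearest to Mgp (0.30), Cxcl1 (0.39) and Moxd1 (0.40), Elf5 to Cracdl (0.28), Hspa4l (0.33) and Cav2 (0.33), and Eomes, on probe set 1, to a probe set of Rcan1 (0.25), Apcdd1 (0.26) and Slc40a1 (0.26). Gata2, on probe set 1, was nearest to Kctd1 (0.17), Myo5b (0.20) and Hopx (0.21). Hand1 was nearest to Rilpl1 (0.19), Dusp6 (0.20) and Ddah1 (0.21), and Tfap2c, on probe set 1, to Yes1 (0.09), Map10 (0.10) and Map4k4 (0.12). Each is the closest of all tested probe sets of other genes, so a close match is what the choice gives.

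With Foxd3 deletion by tamoxifen, Tfap2c was the one member called, on all 3 of its probe sets. These were 3 of the 11 member probe sets tested, from 7 genes, in a contrast where 28.3% of all 24490 probe sets were called and 14.4% called higher, so the count is close to the background. The testable members here were Cdx2, Cited1, Eomes, Gata2, Hand1, Tfap2a and Tfap2c, while Elf5 was dim in all 6 arrays, between 1.10 and 16.3 units on its probe sets.

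Tfap2c had 3079, 2940 and 3633 units on probe set 1 with tamoxifen, against 1386, 1328 and 1371 with DMSO (1.22 ± 0.08, adjusted p = 5.93e-07). On probe set 2 it had 1395, 1329 and 1424 units with tamoxifen, against 708, 671 and 656 with DMSO (0.99 ± 0.07, adjusted p = 1.77e-06). On probe set 3 it had 1019.6, 963 and 1002 units with tamoxifen, against 402, 534 and 484 with DMSO (1.03 ± 0.10, adjusted p = 2.09e-05). The groups lay far apart on each probe set, and the 3 probe sets gave nearly the same size. Cdx2, the homeobox gene at the head of the trophectoderm program, had 347, 228 and 283 units on probe set 1 with tamoxifen, against 226, 266 and 354 with DMSO, so that the arrays overlapped fully (0.02 ± 0.17, interval -0.35 to 0.40, adjusted p = 0.943). In all 12 transfected arrays the same Cdx2 probe set was at 42.7 units or less; the lines and their treatments differ together here, and no test was made between them. On probe set 2 Cdx2 had 78.3, 10.0 and 56.8 units with tamoxifen, against 10.2, 14.5 and 56.0 with DMSO, and was too dim to test.

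Eomes had 222, 189.8 and 187 units on probe set 1 with tamoxifen, against 185, 214 and 247 with DMSO (-0.09 ± 0.14, adjusted p = 0.67), and differed by 0.19 ± 0.19 on probe set 2 (adjusted p = 0.5). Gata2 had 249.6, 173 and 240.4 units on probe set 1 with tamoxifen, against 154, 175 and 265 with DMSO (0.15 ± 0.19, adjusted p = 0.595). Hand1 had 112, 83.4 and 75.1 units with tamoxifen, against 80.5, 102 and 130.2 with DMSO (-0.15 ± 0.19, adjusted p = 0.605), and Cited1 had 65.4, 68.9 and 55.1 units with tamoxifen, against 74.8, 65.9 and 106 with DMSO (-0.25 ± 0.20, adjusted p = 0.376). The groups overlapped for each of these 4 genes. Their 95% intervals together reached from -0.68 to 0.61. Differences of the size called with CA-NFATc3 on the same probe sets lie outside them. The exception is Gata2 probe set 2, not called with CA-NFATc3. Its difference there of 0.63 (interval -0.02 to 1.28) lies at the edge of its tamoxifen interval, -0.34 to 0.61. Tfap2a, on probe set 1, had 57.2, 57.3 and 70.0 units with tamoxifen, against 70.7, 75.4 and 49.0 with DMSO (-0.05 ± 0.20, adjusted p = 0.896), and Gata3 stayed dim at 3.27 to 56.5 units with tamoxifen, against 2.53 to 19.1 with DMSO.

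**Figure D4:**
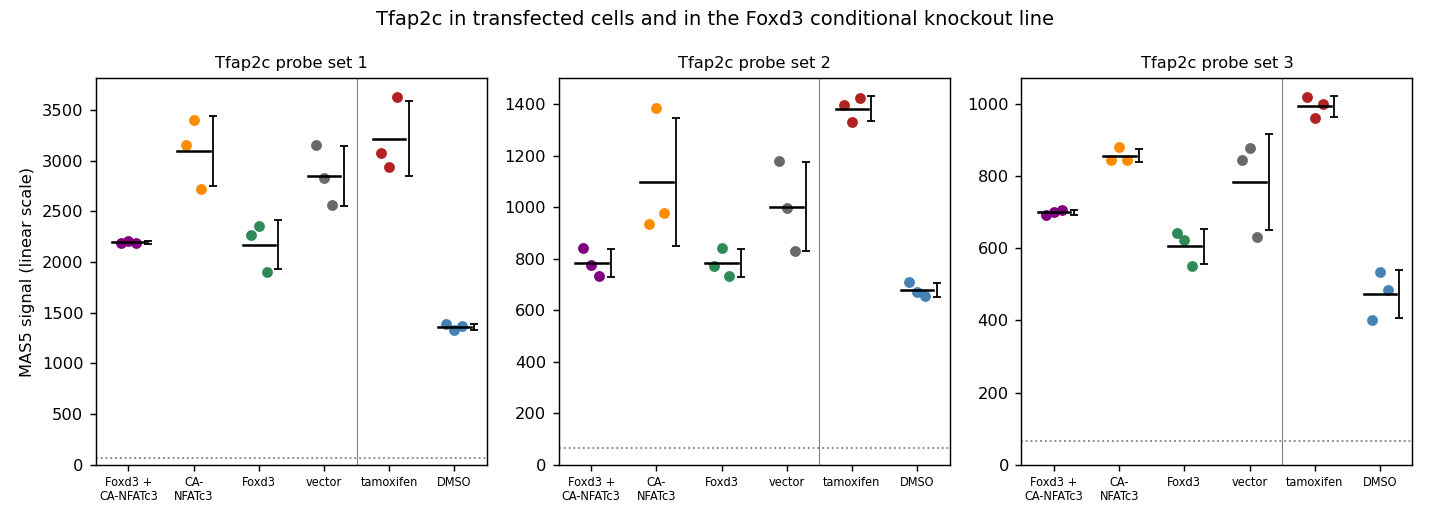
MAS5 signal (linear axis, arbitrary units) of the 3 Tfap2c probe sets in all 6 groups, transfected cells left of the vertical line and conditional knockout cells right of it; points are arrays, bars the mean, whiskers 1 SD (n = 3), the dotted line 65.8 units. On each probe set the tamoxifen arrays lie above the DMSO arrays without overlap, and the arrays labelled with both plasmids lie below those with CA-NFATc3.

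Markers of fibroblasts moved strongly with the same treatment. Of that list, 12 of 14 genes rose with tamoxifen, with a median difference of 2.16 against -0.01 over all probe sets. Dcn (3.54 ± 0.18), Postn (3.49 ± 0.10) and Prrx1 (3.13 ± 0.18) led them. The list's summed signal lay between 29493 and 32534 with tamoxifen, against 10837 to 12438 with DMSO, and 0 of the 14 genes were dim in all tamoxifen arrays, against 1 with DMSO. Its part in the values of Tfap2c was not tested. Of the 30 trophectoderm and trophoblast stem cell genes, 7 rose and 9 fell with tamoxifen (median -0.08), with Nr2f2 (1.63 ± 0.25), Lgals3 (1.47 ± 0.07) and Ascl2 (-1.28 ± 0.36) the furthest from 0. Of the 7 testable placental genes, Prl8a9 (1.26 ± 0.21) and Mmp9 (0.91 ± 0.10) rose, and Cyp11a1 (-0.90 ± 0.17) and Hopx fell. Of the 18 Hippo and Notch genes, 7 rose and 1 fell, with Vgll3 (1.54 ± 0.09) and the Yap-inhibiting kinases Lats2 (1.30 ± 0.13) and Lats1 (0.50 ± 0.08) rising most. Of 11 testable relatives, Tead1 (0.52 ± 0.05) and Elf1 (0.47 ± 0.11) rose and Tbx21 (-0.77 ± 0.26) and Tead2 (-0.46 ± 0.10) fell. The pluripotency factors were split, with 3 of 19 higher and 5 lower, among them Fgf4 (-1.50 ± 0.11), a ligand of Fgfr2, Tbx3 (0.79 ± 0.10) and Tdgf1 (-0.49 ± 0.04). Of the 11 primitive endoderm genes 4 rose, with Pdgfra (1.33 ± 0.14), Dab2 (1.02 ± 0.12) and Col4a2 (0.53 ± 0.11) in front, and of the 7 early mesoderm genes Pdgfra and Bmp4 (0.80 ± 0.08) rose.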

How the data were processed

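Each array gives 1 intensity per probe set, which the authors deposited as a MAS5 signal, per the submitters' processing notes; no version of MAS5 is named there. The scaling was read from the values: without the lowest and highest 2%, every array had a mean of 500.0. Medians per array lay between 55.2 and 80.7, and 3 arrays per group limit the precision.

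From these, log2(signal + 32) was computed with no further normalization. Probe sets that reached 65.8 in at least 3 arrays entered limma 3.58.1 (R 4.3.3; lmFit and eBayes with a variance trend), the 12 transfected and the 6 knockout arrays separately, 1 row per probe set because the members are probe sets. Tests were two-sided, with Benjamini-Hochberg adjustment over 23595 and 24490 probe sets. Gene names came from the platform annotation, with 34945 probe sets of 1 symbol, 932 of several and 9160 of none; 0 symbols needed updating against the RefSeq table of GRCm38.p6.

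The members, gene lists and alternatives were chosen with earlier results of these data known. All member probe sets are named, with the 3 largest called changes per list (family relatives, trophectoderm and trophoblast stem cells, placental differentiation, Hippo and Notch, pluripotency, primitive endoderm, early mesoderm, fibroblasts) and contrast and the 3 nearest patterns per called member; Klf2, Hopx (with tamoxifen) and other genes beyond these were named after their values were seen. Lists share genes such as Sox2, Esrrb, Bmp4 and Msx2.

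The labels tie replicate numbers to no shared day or batch. Same-numbered transfected arrays correlated in their deviations from the group means at 0.0716 to 0.263 (18 pairs), and those of different numbers at -0.245 to 0.0345 (36 pairs). Same-numbered knockout arrays correlated at -0.026 to 0.0272 (3 pairs). The numbers were taken as pairs only if each correlation was over 0.1, so no block entered the fit. More probe sets were called with a block in the transfected cells, so a missing call there can depend on this choice. Alternatives were offsets of 1 and 64, no filter or a filter on the mean, 1 fit of all 18 arrays, a fit of only the 2 groups, quantile normalization, a replicate block, array weights, 1 probe set per gene and leaving out each array with the probe sets kept. On simulated data with 23595 probe sets, CA-NFATc3 against vector recovered 23 of 50 changes of 0.5, 37 of 50 of 1, 49 of 50 of 2 and 50 of 50 of 3 (log2), with 10 false calls.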

Additional observations from a re-analysis of the deposited data

Results flagged for a closer look

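For 3 members the difference between the arrays labelled Foxd3 and their controls was not the same with and without CA-NFATc3, by the interaction term of the 4 transfected groups in limma (n = 3 arrays each). The term was -2.62 ± 0.45 for Cited1 (adjusted p = 0.0128) and -2.10 ± 0.36 for Elf5 (adjusted p = 0.0123). It was -1.59 ± 0.28 (adjusted p = 0.0139) and -1.52 ± 0.27 (adjusted p = 0.0151) on probe sets 1 and 2 of Eomes. With CA-NFATc3 the arrays labelled Foxd3 differed by -2.19 (Cited1), -2.40 (Elf5), -1.42 and -1.66 (Eomes) from their controls, and without it their differences from vector were 0.43, -0.31, 0.17 and -0.14. The probe sets of Cited1 and Elf5 were tested only because their 3 CA-NFATc3 arrays passed the filter, which favours a term below 0. With no filter they were called as well (adjusted p = 0.0241 and 0.0061). Both were dim in all arrays with vector or labelled Foxd3 alone, with or without the filter. A decrease without CA-NFATc3 could not be seen for them, so their terms cannot show its absence. With an offset of 1 the adjusted p was 0.154 for Cited1 and 0.582 for Elf5. Without CA-NFATc3 replicate 3 only Cited1 was called, with Elf5 at 0.0642 and Eomes at 0.0612 and 0.0514 on probe sets 1 and 2. The Foxd3 probe set itself was lower in both groups labelled Foxd3, against its label.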

How the results depend on the processing

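Of 1223 values of single members under an alternative, 1155 kept their direction and side of the threshold, 26 lost a call, 10 gained one and 32 changed sign. The sign changes fell on 17 differences, of which 0 were called and 15 were within 1 SE of 0. Beyond leaving out arrays, they were Gata2 probe set 1 for both plasmids against vector (0.0046 with array weights), Gata2 probe set 2 (-0.0743 with an offset of 1) and Tfap2c probe set 2 (-0.0217 with quantile normalization) for both plasmids against Foxd3, and Cdx2 with tamoxifen (-0.0417 with quantile normalization, -0.0094 with array weights). With 1 array left out, Foxd3 against vector ranged from -0.0099 to 0.2986 and -0.2875 to 0.0370 on probe sets 1 and 2 of Eomes. CA-NFATc3 against vector ranged from -0.0532 to 0.2409 and -0.0064 to 0.2211 on probe sets 2 and 3 of Tfap2c. Both plasmids against vector ranged from -0.0457 to 0.2484 (Eomes probe set 2), -0.1438 to 0.0705 (Gata2 probe set 1) and -0.2729 to 0.0311 (Tead4). Both plasmids against Foxd3 ranged from -0.0830 to 0.0265 (Elf5), -0.1706 to 0.4844 (Gata2 probe set 2), -0.0358 to 0.3469 (Hand1), and -0.0728 to 0.0806 and -0.0507 to 0.0532 (Tfap2c probe sets 1 and 2). The interaction ranged from -0.2976 to 0.0064 (Tead4), and -0.2405 to 0.0537 and -0.0195 to 0.2080 (Tfap2c probe sets 2 and 3), and tamoxifen against DMSO from -0.1127 to 0.1812 (Cdx2) and -0.1706 to 0.0329 (Tfap2a). Called member probe sets numbered 1 for Foxd3 against vector with all 18 arrays, the replicate block or 1 probe set per gene. This was Tfap2c each time. The count was 1 for both plasmids against vector in the same 3 settings and in the fit of only the 2 groups. It was 1 for the interaction with an offset of 1. For tamoxifen against DMSO it was 1 with 1 probe set per gene, where only 1 Tfap2c probe set enters. With 1 array left out, the counts were 0 to 1 for Foxd3 against vector (1 without vector replicate 3), 5 to 5 for CA-NFATc3 against vector, 0 to 0 for both plasmids against vector and against Foxd3, 5 to 7 for both plasmids against CA-NFATc3, 1 to 4 for the interaction (1 without CA-NFATc3 replicate 3) and 3 to 3 for tamoxifen. With an offset of 1 the interaction's adjusted p was 0.154 for Cited1, 0.582 for Elf5 and 0.0506 for Eomes on probe set 2, which was also lost without vector replicate 3 (0.0521) and without replicate 3 of both plasmids (0.0506). Over all probe sets, the replicate block gave 966 calls for Foxd3 against vector (403 without it), 1397 for CA-NFATc3 (842), 1450 for both plasmids (669), 1619 for both plasmids against CA-NFATc3 (926), 119 against Foxd3 (53) and 228 for the interaction (100). With it, Tfap2c was called on probe set 1 for Foxd3 against vector (adjusted p = 0.0065). Tfap2c was also called on probe set 2 for both plasmids against CA-NFATc3 (0.0363), where 8 member probe sets were called in place of 7. Same-numbered transfected arrays correlated at a median of 0.152, against -0.0807 for arrays of different numbers. All 12 transfected arrays correlated best with their own replicate number, which is a hint in the data and no part of the design. All 18 arrays in 1 fit gave 629, 1031 and 178 calls for Foxd3 and both plasmids against vector and the interaction, and 1 probe set per gene gave 4165 with tamoxifen (6932 in probe sets). Without 1 array, calls over all probe sets were 195 to 342 for Foxd3 against vector, 484 to 830 for CA-NFATc3, 361 to 518 for both plasmids, 504 to 768 for both plasmids against CA-NFATc3, 27 to 41 against Foxd3 and 58 to 110 for the interaction. The causes were not tested. Dim members limit what can be seen: 9 of 20 probe sets were not tested in each fit.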

Other observations

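Among the members' other probe sets, Tead4 had 73.6, 55.9 and 13.8 units on probe set 2 with CA-NFATc3, against 68.5, 46.9 and 11.1 with vector. Replicate 3 was the lowest of both groups, and 2 of the 12 transfected arrays reached 65.8 units. Hand1 had 19.2, 24.6 and 25.1 units on probe set 2 with CA-NFATc3, against 6.94, 13.6 and 36.8 with vector, all of them dim. Gata3, which sits beside Tead4 above Cdx2 in the blastocyst, had 9.68, 14.6 and 14.0 units with CA-NFATc3, against 1.72, 1.00 and 1.55 with vector; these arrays did not overlap, but all lay far below 65.8 units and no fold is given. Tfap2a had 33.7, 43.3 and 41.1 units on probe set 2 with CA-NFATc3, against 34.0, 20.4 and 37.5 with vector, and all of these were dim too.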
